A study of Mus musculus with 6 samples.

Results

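The genes described here are 8 upstream transcription factors and cofactors of the muscle lineage: the paired box factors Pax3 and Pax7, the Six-family homeobox factors Six4 and Six5, and the 4 Eya proteins Eya1, Eya2, Eya3 and Eya4. They were chosen by name, and each was measured by a single probe set annotated to that gene alone, giving 8 of the 22180 genes in the table. The study is titled as one of huntingtin in muscle differentiation in culture. It used C2C12, an established mouse myoblast line, with 3 arrays of cells transfected with a Dharmacon pool of siRNAs against the huntingtin gene Htt and 3 arrays of cells transfected with scramble siRNA. The labels call the treated samples knockout, while the protocol describes siRNA, so they are called Htt siRNA here. Both groups came from the same line in standard growth medium. The time after transfection is not given in the sources used here. Nor do they say whether the replicates were separate cultures, so the p-values reflect the spread among these arrays, part or all of which may be technical.

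Pax3 and Pax7 are paired domain and homeodomain transcription factors of embryonic muscle progenitors and of satellite cells, the stem cells of adult muscle. They act upstream of the MyoD family, and Pax7 is normally switched off as myoblasts differentiate. Six-family proteins are homeodomain factors that bind a DNA element named MEF3, found in the control regions of muscle genes such as Myog. Eya proteins do not bind DNA themselves: they join Six-family proteins as coactivators and also carry a phosphatase domain.

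Expression was given as log2 values after RMA, an array summary that compresses weak signals. Differences are Htt siRNA minus scramble, with the standard error (SE) of limma, a linear model fitted across all 22180 genes, and p-values adjusted over all of them (Benjamini-Hochberg, threshold 0.05). Probe sets differ in brightness for reasons unrelated to RNA amount, so no gene's level is read as more or less RNA than another's. The median over all genes serves only as a guide to weak signal. The array medians lay between 2.59 and 2.67, and precision is limited by having 3 arrays per group. Htt itself stood at 4.49, 4.47 and 4.65 in the Htt siRNA arrays, against 5.59, 5.60 and 5.72 in the scramble arrays. All 8 markers fixed for myoblasts, among them Myod1, Myf5 and Des, lay above the median gene level of 2.95. So did all 8 markers fixed for myotubes, so this count does not set myoblasts apart from myotubes. Of the markers of other cells, the share above that median was 2 of 10 for neural crest and melanocytes, 3 of 8 for neurons and glia, 2 of 10 for adipocytes, 2 of 7 for bone and cartilage, 1 of 7 for endothelium and blood, and 4 of 8 for kidney and ear epithelium.

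For 3 promoters chosen to show the elements through which this network is known to act, the window is printed with the element in capitals. Each runs from 250 bases before to 50 bases after a RefSeq gene start on GRCm38.p6, written 5′ to 3′ on the strand of the gene. The Eya4 window (chr10:23349894-23350193, minus strand) belongs to the member with the largest difference between the groups and holds 1 E-box, the CANNTG element that MyoD family factors bind. The Six4 window (chr12:73113196-73113495, minus strand) and the Myog window (chr1:134289754-134290053, plus strand) each hold 1 exact MEF3 element, TCAGGTTTC, which in Six4 reads on the opposite strand as GAAACCTGA.
Eya4: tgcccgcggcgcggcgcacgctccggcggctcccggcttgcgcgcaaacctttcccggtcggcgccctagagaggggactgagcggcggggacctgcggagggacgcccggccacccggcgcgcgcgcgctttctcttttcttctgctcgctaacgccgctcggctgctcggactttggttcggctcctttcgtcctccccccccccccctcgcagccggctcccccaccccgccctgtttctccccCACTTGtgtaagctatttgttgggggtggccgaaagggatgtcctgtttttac
Six4: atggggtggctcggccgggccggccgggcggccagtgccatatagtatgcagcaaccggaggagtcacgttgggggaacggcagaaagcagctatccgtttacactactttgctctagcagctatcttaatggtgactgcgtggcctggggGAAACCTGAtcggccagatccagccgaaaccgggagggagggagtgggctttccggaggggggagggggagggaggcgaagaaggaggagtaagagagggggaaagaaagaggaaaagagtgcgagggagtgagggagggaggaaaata
Myog: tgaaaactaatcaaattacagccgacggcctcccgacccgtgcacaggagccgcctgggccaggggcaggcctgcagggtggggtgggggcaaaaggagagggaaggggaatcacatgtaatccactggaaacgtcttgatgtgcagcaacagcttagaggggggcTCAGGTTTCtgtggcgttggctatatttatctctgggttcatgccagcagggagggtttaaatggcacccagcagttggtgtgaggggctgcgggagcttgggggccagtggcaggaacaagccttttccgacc
The MEF3 letters begin 99 bases before the gene start of the printed window in Six4 and 84 bases before that start in Myog. Six4 has 2 windows, and the printed 1 was taken because it holds the letters. The other window, chr12:73113376-73113675, holds none. Searched on both strands, they occur in 0.429% of the 32851 promoter windows of this length. An E-box occurs in 72.3% of them, so its presence in Eya4 is common. The Myog window also holds 2 E-boxes, left in small letters, which do not overlap its MEF3 letters. Neither of the other printed windows holds both elements. Promoter windows were at hand for 5 of the 8 members (7 windows), and among these 1 gene held MEF3 letters (Six4) and 2 held an E-box (Eya3 and Eya4). The letters are a description of these windows and not evidence of binding.

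None of the 8 members passed the adjusted threshold, and neither did any other gene in this fit (0%). Eya4 had the largest difference, with expression about 1.51 times as high after Htt siRNA. The other 7 members differed by between -0.21 and 0.22 on the log2 scale. Among them Pax3, Pax7, Six5 and Eya2 gave signals near or below the median gene level, where RMA compresses differences. Across the 8 members 5 fold changes were positive and 3 negative, where 58.2% of all genes were positive and 41.8% negative. The median was 0.18 for the members against 0.03 for all genes. At an unadjusted p under 0.05 there was 1 member, Eya4, of 8, against 10.9% of all genes. There were 2 members whose groups did not overlap, Eya4 and Pax3, both higher after Htt siRNA, which is 2 of 8 against 16.0% of all genes in either direction, 10.1% upwards and 5.91% downwards. These counts are too small to set the members apart from the background.

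**Figure D1:**
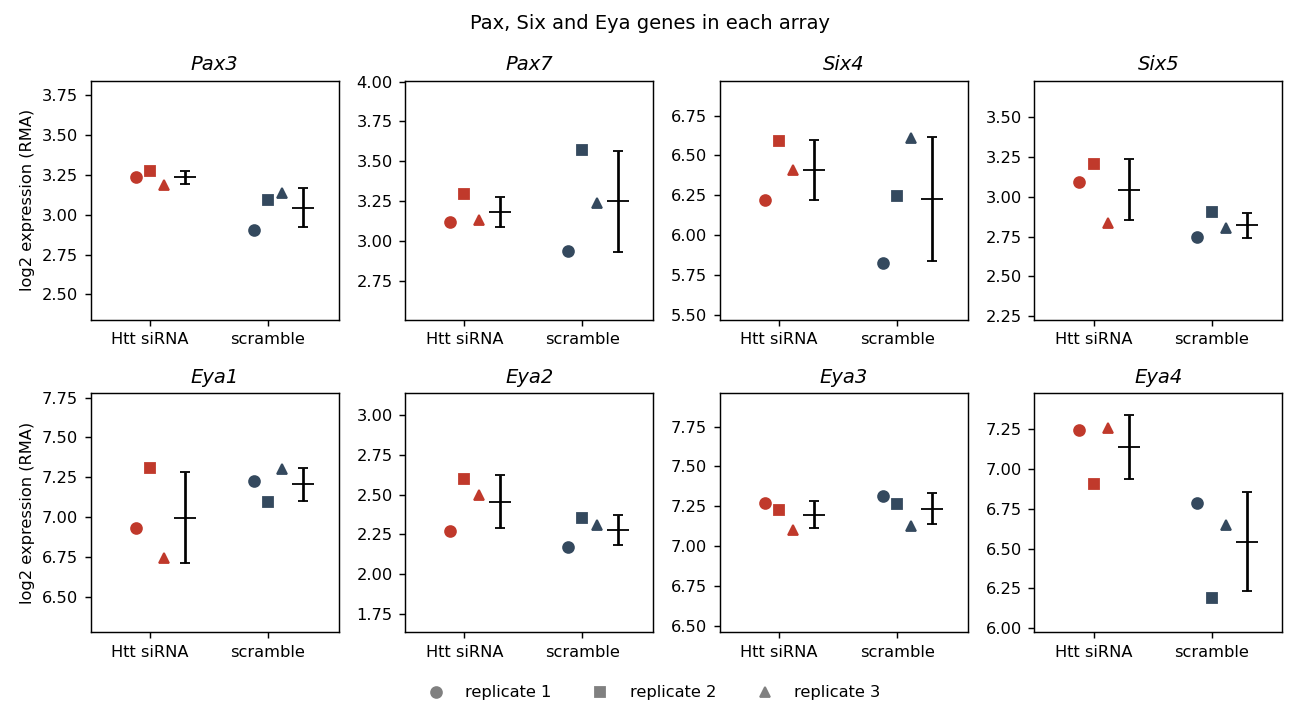
Log2 RMA expression of each of the 8 genes (vertical axes, each spanning the same 1.5 log2 units) in the 3 Htt siRNA arrays (red, left) and the 3 scramble arrays (dark, right). Symbols give the replicate number, and the bars are the mean and SD of 3 arrays. The 2 groups are separate for Pax3 and Eya4 and overlap for the other 6 genes.

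Pax3, which specifies limb and trunk muscle progenitors in the embryo, was slightly higher after Htt siRNA. Its log2 level was 3.24, 3.27 and 3.19 in the Htt siRNA arrays, against 2.91, 3.09 and 3.14 in the scramble arrays. Every Htt siRNA array lay above every scramble array, by a margin that was small beside the spread of the scramble arrays (SD 0.12, n = 3). The difference was 0.19 ± 0.09 (SE; 95% confidence interval -0.03 to 0.41) and did not pass the threshold (limma adjusted p = 0.50). Without scramble replicate 1, the lowest array, it was 0.12. With means of 3.23 ± 0.04 in Htt siRNA arrays and 3.04 ± 0.12 in scramble arrays (SD, n = 3 each), this probe set was close to the median gene level of 2.95, where RMA compresses differences.

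Pax3 also marks neural crest and melanocytes. The mean level of 10 genes of those cells was 2.67, 2.69 and 2.68 in the Htt siRNA arrays, against 2.60, 2.58 and 2.59 in the scramble arrays, without overlap. Sox10, the defining factor of neural crest and named here after its value was seen, averaged 2.19 ± 0.08 in Htt siRNA arrays and 2.20 ± 0.06 in scramble arrays (SD, n = 3 each). Of the 10 genes 2 had an unadjusted p under 0.05, both higher (background 5.72% upwards) and both well below the median gene level. The part of these genes in the Pax3 difference was not tested.

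Pax7, the factor on which satellite cells depend, showed no clear direction. It stood at 3.12, 3.29 and 3.13 in the Htt siRNA arrays, against 2.94, 3.57 and 3.24 in the scramble arrays. The Htt siRNA arrays lay inside the scramble range. The difference was -0.07 ± 0.16 (95% confidence interval -0.43 to 0.30; limma adjusted p = 0.908). In array values the interval spans a fold between 0.743 and 1.23. It does not bound the fold in RNA, as this probe set was close to the median gene level, where RMA compresses differences. The sign of the difference rested on scramble replicate 2, the highest array: without it the value was 0.09.

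Six4, a homeodomain factor of the MEF3-binding family that works with Eya proteins in myogenesis, varied more within the scramble group than between the groups. Its log2 level was 6.22, 6.59 and 6.41 in the Htt siRNA arrays, against 5.83, 6.25 and 6.61 in the scramble arrays. Scramble replicate 3 was the highest of the 6 arrays and scramble replicate 1 the lowest. The difference was 0.18 ± 0.20 (95% confidence interval -0.27 to 0.63; limma adjusted p = 0.772), and without scramble replicate 1 it was -0.02.

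Six5, a relative of Six4 whose gene lies next to the myotonic dystrophy kinase gene Dmpk, had levels of 3.09, 3.21 and 2.84 in the Htt siRNA arrays, against 2.75, 2.91 and 2.80 in the scramble arrays. Htt siRNA replicate 3 lay within the scramble range, and the other 2 Htt siRNA arrays lay above it. The difference was 0.22 ± 0.11 (95% confidence interval -0.04 to 0.49; limma adjusted p = 0.517). It was 0.14 (adjusted p = 0.616) without Htt siRNA replicate 2 and 0.33 (adjusted p = 0.634) without Htt siRNA replicate 3. The Six5 probe set was close to the median gene level, where RMA compresses differences. Dmpk, its neighbour, also named after its value was seen, had a difference of 0.28 ± 0.17 (limma adjusted p = 0.582).

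Among the Eya genes, Eya4 differed most between the groups. Eya4, a coactivator and phosphatase whose human gene is linked to hearing loss and cardiomyopathy, had levels of 7.25, 6.90 and 7.26 in the Htt siRNA arrays. Its levels in the scramble arrays were 6.79, 6.19 and 6.65. All 3 Htt siRNA arrays lay above all 3 scramble arrays, with Htt siRNA replicate 2 lowest in its group and scramble replicate 2 lowest in the other.

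Eya4 averaged 7.14 ± 0.20 in Htt siRNA arrays and 6.54 ± 0.31 in scramble arrays (SD, n = 3 each). The log2 fold change was 0.59 ± 0.17 (95% confidence interval 0.19 to 0.99), a fold between 1.14 and 1.99. It was larger in size than 97.6% of all genes, dim ones included, whose differences RMA compresses. It ranked 556 of 22180 by limma p, with an unadjusted p = 0.00917 and an adjusted p = 0.363. When each array was left out in turn the value stayed positive, between 0.42 without scramble replicate 2 and 0.72 without scramble replicate 1.

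Eya1, which partners Six-family proteins in muscle, kidney and ear development, did not separate the groups. It stood at 6.93, 7.31 and 6.74 in the Htt siRNA arrays, against 7.23, 7.09 and 7.30 in the scramble arrays. Htt siRNA replicate 2 was the highest of the 6 arrays and the other 2 Htt siRNA arrays were the lowest. The difference was -0.21 ± 0.15 (95% confidence interval -0.55 to 0.13; limma adjusted p = 0.643), and it ranged from -0.37 (adjusted p = 0.175) without Htt siRNA replicate 2 to -0.085 (adjusted p = 0.905) without Htt siRNA replicate 3.

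Eya2, the family member known to join Six-family factors in activating muscle promoters, had levels of 2.27, 2.60 and 2.50 in the Htt siRNA arrays, against 2.17, 2.35 and 2.31 in the scramble arrays. The groups overlapped through Htt siRNA replicate 1. These values were below the median gene level, and the difference was 0.18 ± 0.11 (95% confidence interval -0.08 to 0.43; limma adjusted p = 0.596). It was 0.27 (adjusted p = 0.637) without Htt siRNA replicate 1 and 0.11 (adjusted p = 0.722) without Htt siRNA replicate 2.

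Eya3, a broadly expressed member with a role in DNA damage signalling, was the steadiest of the 8. It stood at 7.27, 7.22 and 7.10 in the Htt siRNA arrays, against 7.32, 7.27 and 7.12 in the scramble arrays. The groups overlapped almost fully, and the difference was -0.04 ± 0.09 (95% confidence interval -0.25 to 0.18; limma adjusted p = 0.912), so a fold outside 0.839 to 1.13 lies beyond its interval. The sign turned when Htt siRNA replicate 3 (0.010) or scramble replicate 1 (0.0027) was left out.

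**Figure D2:**
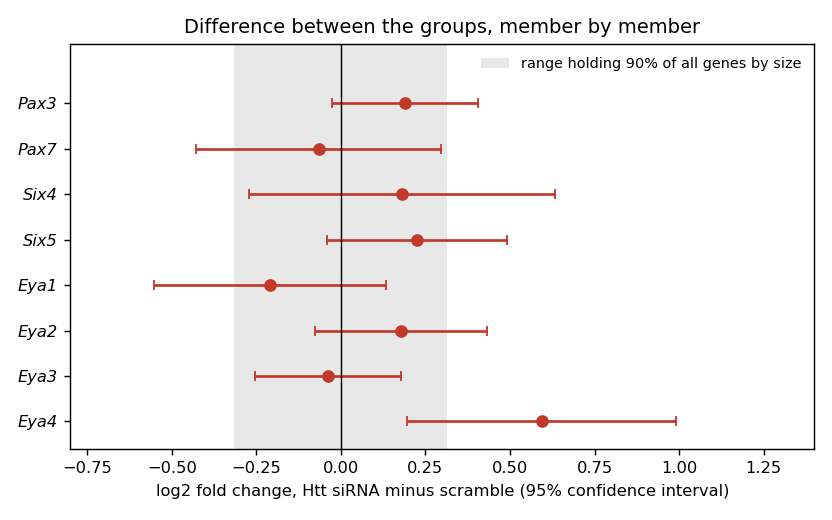
Log2 fold change of each of the 8 genes, Htt siRNA minus scramble (horizontal axis), with the 95% confidence interval from limma for 3 arrays per group. The grey band spans the sizes that hold 90% of all 22180 genes, dim ones included (up to 0.31 either way). Only the interval of Eya4 leaves out 0, before adjustment over all genes, and its value of 0.59 lies outside the band.

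Paralogues were also set against each other within arrays, as a description of 5 pairs chosen after their values were seen, with no test. Only the change of each difference between the groups is read, as probe sets differ in brightness. Eya4 minus Eya1 was 0.31, -0.40 and 0.51 in the Htt siRNA arrays, against -0.44, -0.90 and -0.65 in the scramble arrays. The groups did not overlap, and the means differed by 0.80. That shift restates the separate differences of Eya4 and Eya1 given above. Eya4 minus Eya3 differed by 0.63 between the groups, also without overlap, and Eya4 minus Eya2 by 0.42 with overlap. Pax3 minus Pax7 was 0.12, -0.02 and 0.06 in the Htt siRNA arrays, against -0.03, -0.48 and -0.10 in the scramble arrays, a difference of 0.26 without overlap. That separation was narrow, with Htt siRNA replicate 2 at -0.018 and scramble replicate 1 at -0.033. Both probe sets were close to the median gene level. The share of such separations among other gene pairs was not computed. Six4 minus Six5 differed by -0.04, with overlap.

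Of 20 terminal differentiation genes 18 had an unadjusted p under 0.05 upwards (background 5.72%), and of 24 S phase genes 21 downwards (background 5.14%), with 0 in either list passing the adjusted threshold. The mean level of the differentiation genes, such as Myog, Mymk and Actc1, was 5.30, 4.54 and 5.21 in the Htt siRNA arrays, against 3.94, 3.46 and 4.06 in the scramble arrays. Eya4 was lowest within each group in the same array as this level, replicate 2 in both. It differed in order elsewhere: scramble replicate 1 exceeded scramble replicate 3 for Eya4 but not for the differentiation level. Eya1 had its 2 lowest values in Htt siRNA replicates 1 and 3, the 2 arrays with the highest differentiation level.

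The mean level of the S phase genes was 5.36, 6.64 and 5.60 in the Htt siRNA arrays, against 6.46, 7.08 and 6.83 in the scramble arrays, so Htt siRNA replicate 2 lay above scramble replicate 1. Scramble replicate 2 was highest for S phase and lowest for Eya4. The mean level of 21 endoplasmic reticulum stress genes was 8.50, 6.78 and 8.52 in the Htt siRNA arrays, against 8.47, 6.83 and 7.25 in the scramble arrays. Within each group Eya4 ranked the arrays in the same order as this stress level. With group means removed, the Pearson correlation of Eya4 over the 6 arrays was 0.89 with the differentiation level. It was 0.87 with the stress level and -0.80 with the S phase level. Sizes like these were not particular to Eya4. For Eya2 the values were -0.72 with differentiation, -0.80 with stress and 0.87 with S phase, and Pax7 had -0.81 with stress. Eya3 had smaller ones, 0.11 with stress and -0.06 with S phase. The part of these levels in the differences of the members was not tested. In RNA from whole cultures, fewer cells expressing a gene and less RNA per cell cannot be told apart.

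**Figure D3:**
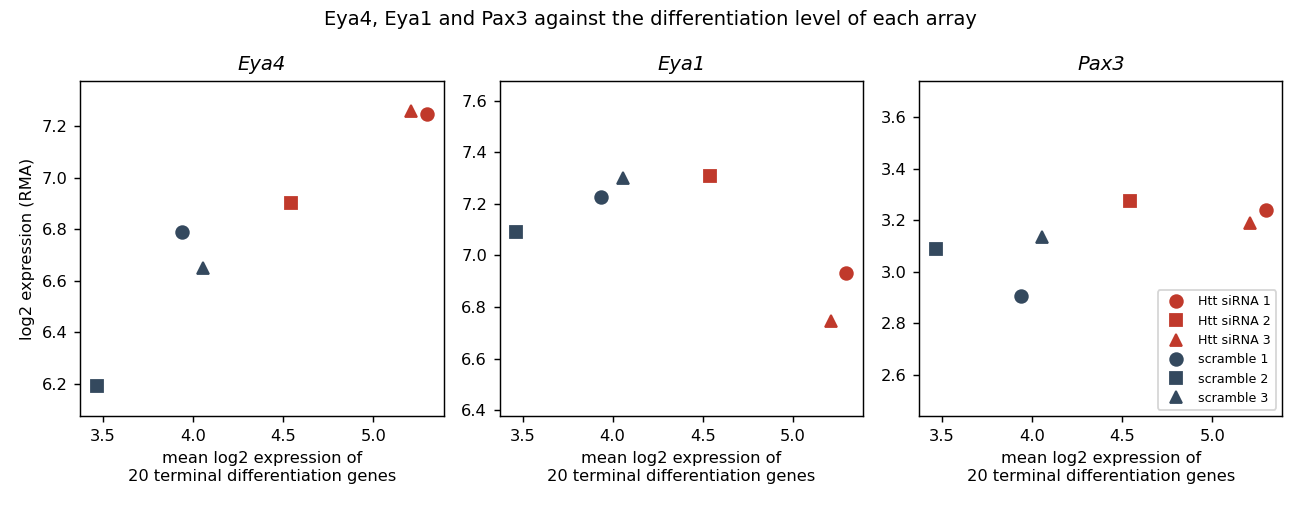
Log2 RMA expression of Eya4, Eya1 and Pax3 (vertical axes, each spanning the same 1.3 log2 units) against the mean log2 expression of 20 terminal differentiation genes (horizontal axis) in the 3 Htt siRNA arrays (red) and the 3 scramble arrays (dark). Eya4 is highest at 7.26 in Htt siRNA replicate 3 and lowest at 6.19 in scramble replicate 2, which has the lowest differentiation level, whereas Eya1 is lowest in Htt siRNA replicates 1 and 3.

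The genes whose pattern over the 6 arrays was most like that of Eya4, by Pearson's r among 11089 genes above the median level, were Sardh, a mitochondrial sarcosine dehydrogenase (r = 0.997), Chmp2a, an ESCRT-III subunit (r = 0.995), and Lama2, the laminin chain of the muscle basement membrane (r = 0.994). Lama2 differed by 0.79 ± 0.20 between the groups. For Pax3 they were Sidt2, a lysosomal membrane protein (r = 0.999), Zfp30, a zinc finger protein (r = 0.985), and Cxcr4, a chemokine receptor of migrating muscle precursors (r = 0.982). With 6 arrays and so many candidates high values are common: 398 genes had r over 0.9 with Eya4 and 73 with Pax3. The arrays share their grouping and normalization, so these are descriptions.

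Measured differences were small for most relatives of the members, but most of these genes gave weak signals, which RMA compresses. Only 3 of the 10 Six-family, Eya and Dach network genes lay above the median gene level. Of 10 other genes of the Six-family, Eya and Dach network that were measured, 1 had an unadjusted p under 0.05 upwards (background 5.72%) and 0 downwards (background 5.14%), with a median of 0.03, equal to that of all genes. The upward gene was Six3, a factor of forebrain and eye, at 2.52, 2.76 and 2.85 in the Htt siRNA arrays, against 2.31, 2.28 and 2.22 in the scramble arrays (0.44 ± 0.11, limma adjusted p = 0.301). All 6 values were below the median gene level. The corepressor genes Tle1 (-0.23 ± 0.17) and Tle3 (0.16 ± 0.18) came next by p. Six2 (0.03 ± 0.10), Six6 (0.01 ± 0.10), Dach1 (-0.01 ± 0.10) and Dach2 (0.03 ± 0.09), the Dach proteins being cofactors of Six-family and Eya, differed by less than their errors. These genes too lay below the median gene level, so a small difference could go unseen.

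Of the 7 other Pax genes, 0 had an unadjusted p under 0.05 in limma, against 10.9% of all genes. None passed by the adjusted p, and the median was 0.01. Only 1 of the 7 lay above the median gene level. The smallest p belonged to Pax6 (0.11 ± 0.09), Pax2 (0.14 ± 0.12) and Pax8 (-0.08 ± 0.13), which are best known from eye, kidney and thyroid. The sign of Pax8 turned when Htt siRNA replicate 1 or scramble replicate 1 was left out.

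Of 12 measured genes for proteins that work with or turn over Pax3 and Pax7, 0 had an unadjusted p under 0.05 upwards and 2 downwards, where 5.14% of all genes did so downwards. Their median was -0.09, and 8 of the 12 values were negative, against 41.8% of all genes. Daxx, a histone chaperone that represses Pax3 activity, was 5.33, 5.23 and 5.26 in the Htt siRNA arrays, against 5.65, 5.48 and 5.52 in the scramble arrays (-0.28 ± 0.09, limma adjusted p = 0.384). Every Htt siRNA array lay below every scramble array.

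Paxip1, which links Pax proteins to histone methyltransferases, averaged 5.85 ± 0.46 in Htt siRNA arrays and 6.46 ± 0.15 in scramble arrays (SD, n = 3 each; -0.62 ± 0.21, limma adjusted p = 0.398). Htt siRNA replicate 2, at 6.37, lay among the scramble arrays, and without it the difference was -0.88 with an adjusted p = 0.0177. Without Htt siRNA replicate 3 it was -0.46, and as the mean of all its probe sets -0.40, with an unadjusted p under 0.05 in 8 of 13 alternatives. Ash2l, a subunit of the methyltransferase complex that Pax7 recruits to the Myf5 gene, differed by -0.18 ± 0.10, also without overlap (limma adjusted p = 0.527).

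Genes known as targets of Pax3 and Pax7 were spread in both directions. Of 14 measured, 3 had an unadjusted p under 0.05 upwards (background 5.72%) and 1 downwards (background 5.14%), with a median of 0.10. Cxcr4 stood at 6.44, 6.90 and 6.26 in the Htt siRNA arrays, against 5.11, 5.80 and 6.04 in the scramble arrays (0.88 ± 0.25, limma adjusted p = 0.362), with the groups apart. Lbx1, a homeobox factor of migrating limb muscle precursors, differed by 0.40 ± 0.12, and Tfap2a, a neural crest factor, by -0.32 ± 0.12, both at levels below the median gene. The third upward gene was Myod1 (0.66 ± 0.27), while Myf5, the direct target of Pax7 in satellite cells, had 0.40 ± 0.35, and Met, the receptor that Pax3 controls in limb precursors, -0.36 ± 0.22; these 3 were chosen after their values were seen.

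Targets of Six-family factors held the largest differences near the network. Their upward count rests on muscle differentiation genes that earlier results of these data had already shown. Of 15 measured, 6 had an unadjusted p under 0.05 upwards (background 5.72%) and 2 downwards (background 5.14%), with a median of 0.27. The downward genes were Ezr, given below, and Ccnd1 (-0.91 ± 0.34, limma adjusted p = 0.416), named after its value was seen. Myog, whose promoter is shown above with its MEF3 element, stood at 7.73, 6.22 and 7.71 in the Htt siRNA arrays, against 4.53, 3.97 and 5.11 in the scramble arrays. The groups were far apart, with Htt siRNA replicate 2 the lowest of its group (2.68 ± 0.44, limma adjusted p = 0.169). Of the 11 listed targets with promoter windows, 1, Myog, held the MEF3 letters in that window.

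Tnnt3, the fast skeletal troponin T, averaged 5.75 ± 0.84 in Htt siRNA arrays and 3.91 ± 0.25 in scramble arrays (SD, n = 3 each; 1.84 ± 0.37, limma adjusted p = 0.242). Ezr, which encodes the membrane linker ezrin, averaged 8.28 ± 0.13 in Htt siRNA arrays and 8.74 ± 0.07 in scramble arrays (-0.46 ± 0.10, limma adjusted p = 0.267). Both had groups that did not overlap. Without Htt siRNA replicate 2 the adjusted p was 0.00778 for Myog and for Tnnt3 and 0.0465 for Ezr, in a fit that called 540 genes and none of the 8 members.

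**Figure D4:**
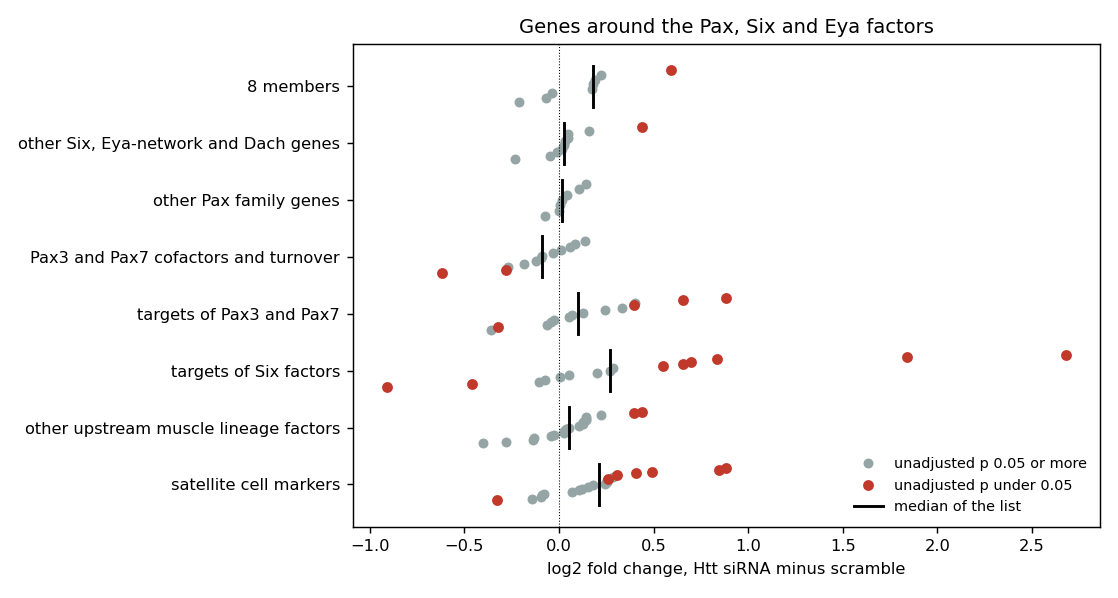
Log2 fold change, Htt siRNA minus scramble (horizontal axis), of every measured gene in the 8 members and 7 surrounding lists (1 dot per gene; red, unadjusted p under 0.05 in limma; bar, median of the list). The members' median lies at 0.18 with Eya4 as the 1 red dot, and Myog (2.68) and Tnnt3 (1.84) lie farthest right among the Six-family targets.

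Of 19 other upstream lineage factors, 2 had an unadjusted p under 0.05 upwards (background 5.72%) and 0 downwards (background 5.14%), with a median of 0.05. These were Barx2, a homeobox factor of satellite cells and myoblast fusion (0.44 ± 0.13, limma adjusted p = 0.366), and Lbx1, both below the median gene level. Without Htt siRNA replicate 2 Barx2 had a value of 0.57 and an adjusted p = 0.0398. Msc, the repressor musculin, came next with -0.40 ± 0.19.

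Of 20 measured satellite cell markers, 6 had an unadjusted p under 0.05 upwards (5.72% of all genes) and 1 downwards (5.14%), and none passed the adjusted threshold. Their median was 0.21, and 15 of the 20 values were positive, against 58.2% of all genes. Their mean level was 6.02, 6.06 and 6.0 in the Htt siRNA arrays, against 5.77, 5.75 and 5.94 in the scramble arrays, without overlap. Hey1, a Notch target, averaged 5.38 ± 0.17 in Htt siRNA arrays and 4.53 ± 0.37 in scramble arrays (SD, n = 3 each; 0.85 ± 0.19, limma adjusted p = 0.271). Ncam1, an adhesion molecule that also rises in differentiating muscle, differed by 0.49 ± 0.12 (limma adjusted p = 0.299), and Cxcr4 is given above. The single downward gene was Cav1, encoding caveolin (-0.33 ± 0.13), chosen after its value was seen.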

How the data were processed

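The 6 arrays were grouped by their titles, 3 per group. The authors deposited log2 expression values for 41345 probe sets, made with RMA and the affy package per the submitters' processing notes, which give no versions. RMA includes background correction and quantile normalization, which removes any difference in total RNA between the cultures. Per the labels' protocols the RNA was labelled by in vitro transcription. The values ranged from 0.84 to 12.12 and carry no detection calls. The platform annotation gave 23521 probe sets 1 symbol and 1814 several, and left 16010 unnamed here. For each of 22180 genes the brightest single-symbol probe set over the 6 arrays was used, with no filter on dim genes.

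Limma 3.58.1 in R 4.3.3 (lmFit, eBayes, group as the only term) tested all genes, two-sided, with Benjamini-Hochberg adjustment over all of them. The fit was tested on simulated data. Figures were drawn with matplotlib 3.10.9. Promoters came from RefSeq, GRCm38.p6. The members, the lists and the tests were chosen with earlier results of these data known. Named genes are the members, Htt, the 3 smallest p of each surrounding list, the Six-family, Pax and Dach genes, and the 3 genes most alike to each of 2 members (those with the smallest p); others are marked as chosen after their values were seen. Alternatives left out each array, added the replicate number as a block, centred the arrays, repeated quantile normalization, kept genes above the median level, averaged probe sets, weighted arrays, or changed the variance model.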

Additional observations from a re-analysis of the deposited data

How the results depend on the processing

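Under all 13 alternatives 0 of the 8 members passed the adjusted threshold (limma), and Eya4 and Pax3 stayed positive; Eya4 had an unadjusted p under 0.05 in 13 of 13 and an adjusted p between 0.0657 and 0.689. Of 102 values for the members 98 kept their sign. The 4 that turned came from leaving out 1 array: Eya3 (range over the arrays left out -0.093 to 0.010; 0.010 without Htt siRNA replicate 3, 0.0027 without scramble replicate 1), Six4 (-0.020 to 0.37; -0.020 without scramble replicate 1) and Pax7 (-0.22 to 0.095; 0.095 without scramble replicate 2). Among other named genes Pax8 ranged from -0.19 to 0.019 (positive at 0.0047 without Htt siRNA replicate 1, and at 0.019 without scramble replicate 1) and Tle3 from -0.031, without Htt siRNA replicate 3, to 0.28. The number of genes called was 0 as reported. It was 3 with centred arrays, with repeated quantile normalization and among genes above the median level, 4 with trend and robust variance, 1 with array weights, and between 0 and 540 when an array was left out. The number at an unadjusted p under 0.05 was 2409 as reported, 1362 among genes above the median level, and between 1538 and 3451 when an array was left out. With centred arrays its split was 911 higher and 1465 lower, against 1269 and 1140. Same-numbered arrays share only a number in the labels: their deviations from the group means correlated with r of 0.35, 0.36 and 0.0064 across genes, and Htt siRNA replicate 3 correlated best with scramble replicate 1 (r = 0.22). With the replicate number as a block 98 genes were called and 0 members, with Eya4 at an adjusted p of 0.0657. Six5 and Eya2 have no value among genes above the median level. The causes of these changes were not tested. Signals near the median gene level, as for Pax3, Pax7, Six5 and Eya2, limit what their differences can show.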

Other observations

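The members did not share 1 pattern over the arrays. Htt siRNA replicate 2 held the highest value of the 6 arrays for 4 of the 8 members (Pax3, Six5, Eya1 and Eya2), where it held that of 17.9% of all genes. Scramble replicate 1 held the lowest value for 5 of the 8 (Pax3, Pax7, Six4, Six5 and Eya2), where it held that of 15.5% of all genes. This was seen after the values were known and was not tested.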
